A study of Arabidopsis thaliana with 28 samples.

Results

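The 41 Arabidopsis thaliana genes described here had at least 1 log2 unit more signal on medium with sucrose than on medium without it. They were picked from the 692 probes that the platform annotation ties to 1 gene, out of 3439 probes in all. The values that chose them were the means of 14 arrays per medium after log2 transformation and quantile normalization: the sucrose mean minus the no-sucrose mean had to be at least 1, and the sucrose mean had to be above -2.5. Of these probes, 50 (7.23%) met both thresholds, and 9 of them are not described here. Both were met by 7.62% of all probes, by 5.86% of the probes tied to several genes and by 8.58% of those the annotation does not list. Since this contrast chose the genes, their differences between the media are given as a description and carry no test.

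All plants were wild type of the ecotype Columbia 0. The pSuc group grew on Murashige and Skoog medium (MS, a standard mineral medium for plant culture) with 2% sucrose, and the H2O group on MS medium with no sucrose named in its labels. Each group had 14 arrays of total RNA. The labels give neither an organ nor an age, and of 14 marker genes of root, seed, flower and leaf only 1 had a probe of 1 gene, so the material could not be checked.

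Sucrose is the form in which most plants move carbon from leaves to other organs, and it also acts as a signal. Sugars taken up from the medium feed respiration and the synthesis of starch, lipids and cell walls, and they are known to shift the expression of genes for photosynthesis, storage and growth. Most proteins of plastids and mitochondria are encoded in the nucleus and imported, so transcripts of nuclear genes report on these organelles too. What each gene is known for is given below as general background. The deposited table and the annotation used here do not state these functions, and 13 of the 41 genes are left without one.

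Arrays with consecutive replicate numbers resembled each other, with correlations of 0.903 to 0.989, and 26 of the 28 arrays were closest to that partner. Each such pair was averaged into a set, giving 7 sets per group. The labels do not call them duplicates and name no separate cultures, so the spread between sets may be technical. The set labelled pSuc 1 lay with the H2O sets in these genes, and H2O sets 1 and 2 lay between the groups. The median signal of the 41 genes was -2.34 in pSuc set 1 and -0.87 to -0.76 in the other 6 pSuc sets (normalized log2 signal). It was -1.80 and -1.63 in H2O sets 1 and 2, and -2.89 to -2.35 in the other 5 H2O sets. In pSuc set 1 only 1 of the 41 genes was nearer to its pSuc mean than to its H2O mean, against 37 to 41 genes in the other pSuc sets. In H2O sets 1 and 2 these counts were 18 and 14, and in the other H2O sets they were 0 to 3. The overall signal moved with the same sets: median intensities before normalization were 0.339 in pSuc set 1 and 0.164 to 0.213 in the other pSuc sets, and 0.182 and 0.214 in H2O sets 1 and 2 and 0.347 to 0.429 in the other H2O sets. The part of overall signal in the differences below was not tested.

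**Figure D1:**
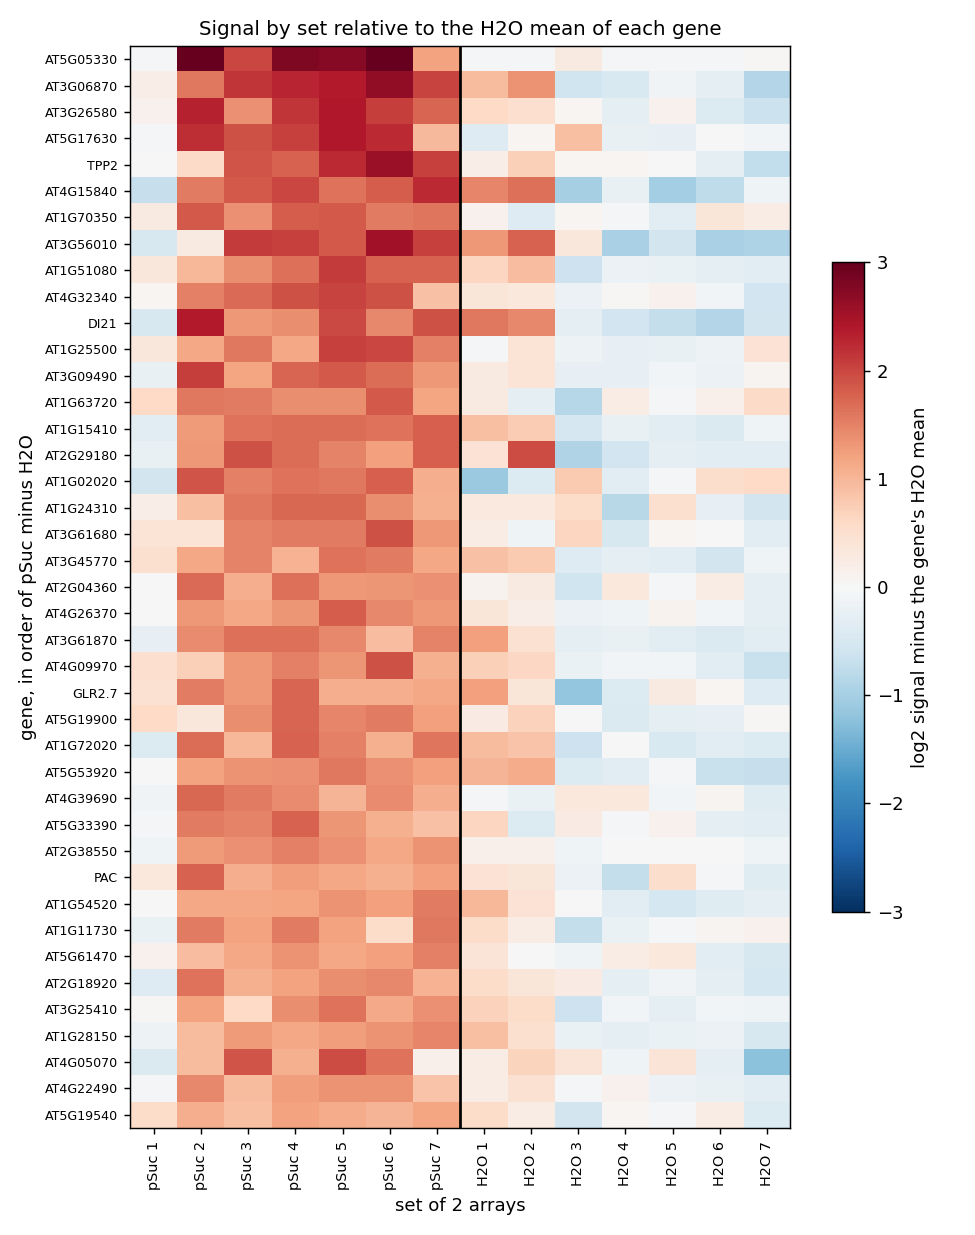
Heat map of the 41 genes (rows, by size of the difference) in 7 pSuc sets and 7 H2O sets (columns), coloured by the normalized log2 signal minus the gene's H2O mean. The column of pSuc set 1 resembles the H2O columns, and H2O sets 1 and 2 are above the other H2O sets in many rows.

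The differences ran from 1.01 to 2.10 on the log2 scale (2.01-fold to 4.29-fold), with a median of 1.21, where the median of all probes was 0.00. In a limma fit over all 3439 probes, 17.6% were higher on pSuc and 12.4% lower at an adjusted p under 0.05, which is 605 and 428 probes. With the values as deposited that balance turned, to 189 higher and 739 lower. Median centring gave 1076 higher and 433 lower. Of the 41 genes 37 were past that threshold, a count that follows from the choice of the genes. With the values as deposited it was 26, and with a floor 4 times as high it was 30. The 4 that missed it, AT4G15840, DI21, AT4G05070 and AT3G56010, had adjusted p of 0.0536 to 0.0753. In bulk RNA, fewer cells of a type and less RNA per cell cannot be told apart. On pSuc 21 of the 41 genes had a mean above those of 75% of all probes, and on H2O 8 had. Their pSuc means had a median of -0.97 and their H2O means one of -2.26, where the median level of all probes was -1.99. In 33 genes the pSuc mean was above that level, against 16 genes with an H2O mean above it. That more genes lay above these levels on pSuc than on H2O follows from the choice of the genes.

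The size of these differences depended on the scaling. With the values as deposited 8 of the 41 genes differed by at least 1, and the differences ran from 0.42 to 1.61, all in the same direction. With each array centred on its median all 41 did. These scalings moved the median difference of all probes to -0.31 and 0.31. An offset of 0.1 in place of the signal floor left 16 genes at or above 1, and a floor 4 times as high left 21. Under quantile normalization, both other scalings and both other treatments of low values, 5 genes stayed at or above 1. They were AT3G06870, AT3G26580, AT4G32340, AT1G25500 and AT4G39690.

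**Figure D2:**
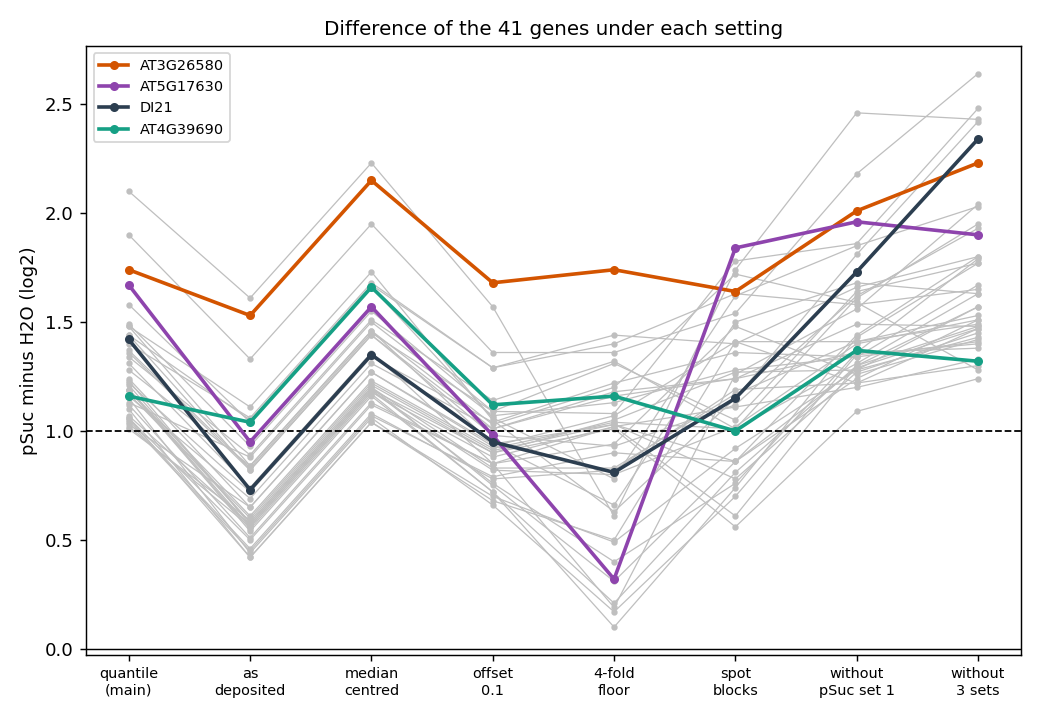
Difference of each of the 41 genes (lines; pSuc minus H2O, log2) under the scalings, the treatments of low values and the sets kept, with the threshold of 1 dashed. All lines stay above 0. They drop with the values as deposited, where 8 genes reach 1. With the 4-fold floor AT5G17630 drops to 0.32, and the lowest line, AT3G61870, drops to 0.10.

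The groups overlapped in 40 of the 41 genes, and pSuc set 1 was the lowest pSuc set in 40. The exception to the overlap was AT1G63720, a hydroxyproline-rich glycoprotein family gene. Its signal ran from -1.72 over a median of -0.93 to -0.49 in pSuc sets and from -3.17 over -2.16 to -1.75 in H2O sets, so the groups were 0.04 apart. Over all probes, every pSuc set lay above every H2O set in 0.872%. With pSuc set 1 left aside, the other 6 pSuc sets lay above all H2O sets in 28 of the 41 genes, against 9.94% of all probes. That set was left aside because of its values in these data, which favours such a count. The choice of the genes for a higher pSuc mean favours it too, so its excess over the share of all probes supports nothing. Over single arrays, 0 of the 41 genes had groups that did not overlap, and the share of all probes was not counted there.

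**Figure D3:**
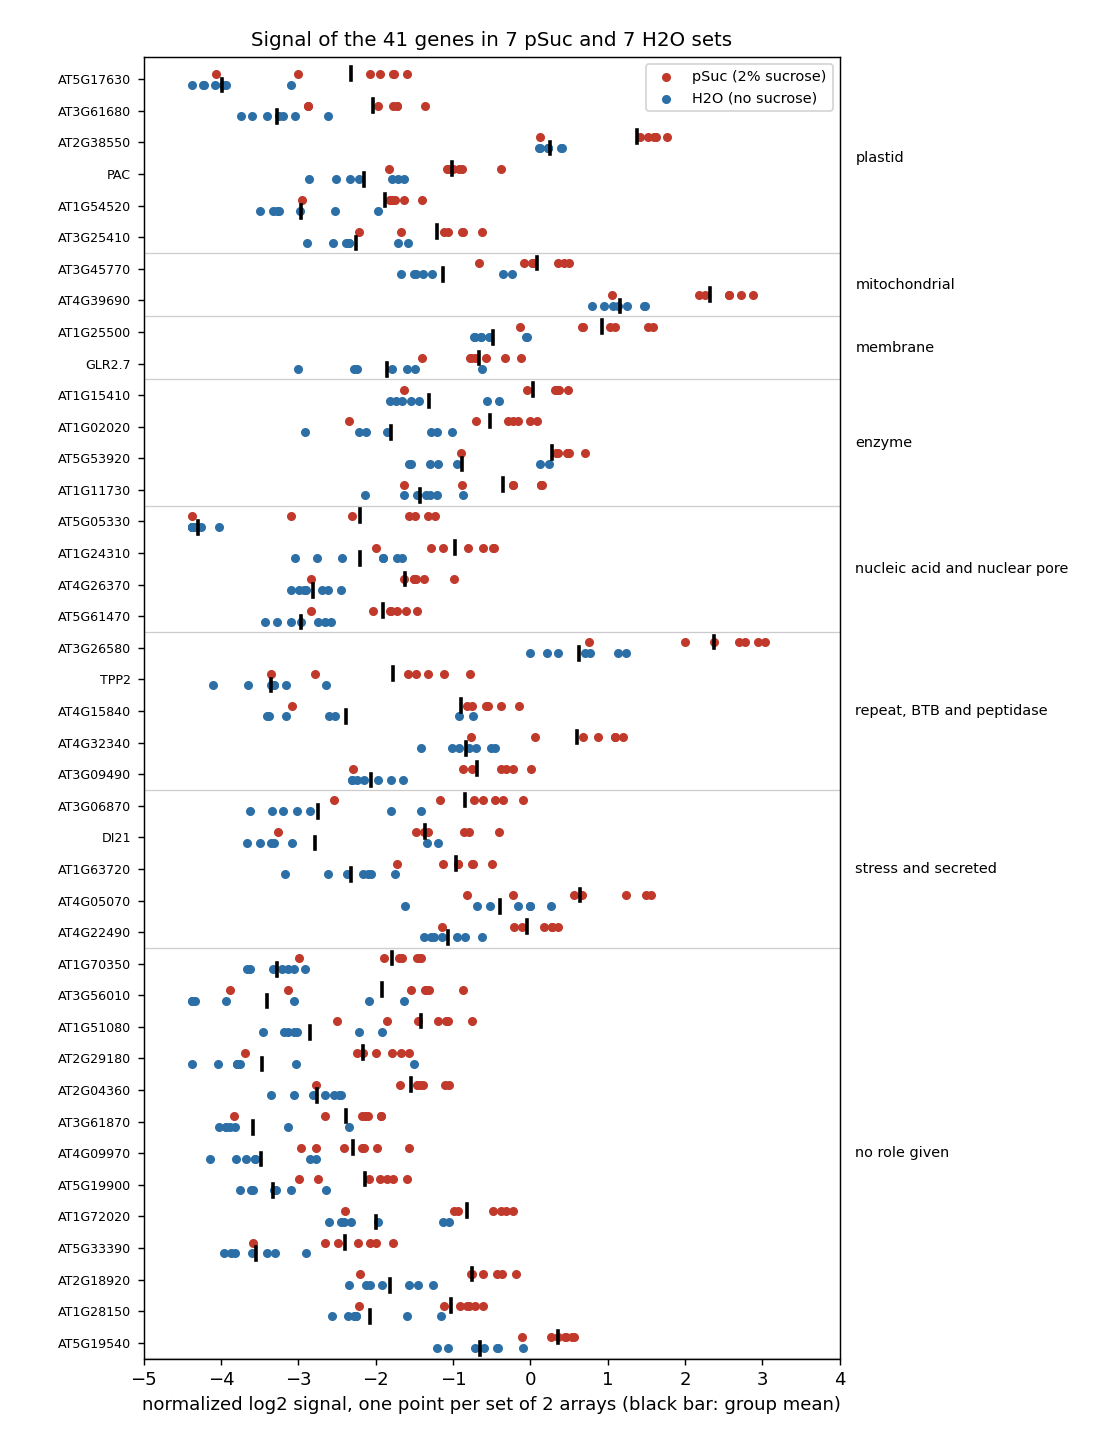
Normalized log2 signal of the 41 genes, grouped by function, in the 7 pSuc sets (red) and the 7 H2O sets (blue), 1 point per set of 2 arrays, with black bars at the group means. In most rows 1 red point, pSuc set 1, lies among the blue points, and AT3G26580 and AT4G39690 are the brightest genes.

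The genes known for plastid functions had differences of 1.05 to 1.67, with a median of 1.13, and there were 6 of them. AT5G17630 encodes a plastid envelope translocator that exchanges xylulose 5-phosphate for phosphate. It was the dimmest of the 6 on both media, with signals from -4.06 over a median of -1.95 to -1.59 in pSuc sets and from -4.37 over -4.08 to -3.09 in H2O sets. Its lowest pSuc value was that of set 1, and the other 6 pSuc sets, from -3.01 up, lay above all H2O sets. The difference was 1.67 (3.19-fold), but with the 4-fold floor it was 0.32, and 1 of its H2O sets was at the floor.

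AT2G38550, which encodes a fatty acid export protein of the plastid envelope, was the brightest of the plastid genes. Its signal ran from 0.12 over a median of 1.60 to 1.77 in pSuc sets, against 0.11 to 0.41 in H2O sets with a median of 0.23. The H2O sets were close together, with an SD of 0.12, and 6 of the 7 pSuc sets were above all of them. The medians of the deposited intensities were 2.75 in pSuc sets and 1.33 in H2O sets, and the normalized difference was 1.13 (2.19-fold). Lipid metabolism of the plastid was also represented by AT3G61680, a plastid lipase gene. Its means were -2.04 ± 0.59 in pSuc sets and -3.27 ± 0.37 in H2O sets (SD, n = 7 each). Its difference was 1.23, and with the 4-fold floor it was 0.40.

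PAC (PALE CRESS), whose product is needed for plastid ribosomal RNA maturation and chloroplast development, averaged -1.02 ± 0.43 in pSuc sets and -2.15 ± 0.46 in H2O sets (SD, n = 7 each). All 7 pSuc sets lay above the H2O mean, and 6 lay above every H2O set. AT1G54520, known for a chloroplast membrane protein involved in acclimation to changing light, averaged -1.88 ± 0.50 in pSuc sets and -2.97 ± 0.54 in H2O sets. In this gene H2O sets 1 and 2 averaged -2.25, against -3.26 in the other 5 H2O sets. AT3G25410, of the bile acid:sodium symporter family, was 1.05 higher on pSuc, and 5 of its pSuc sets lay above all H2O sets. As deposited, 0 of the 6 plastid genes differed by 1 or more.

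A pair of genes is known for mitochondrial proteins. AT4G39690 encodes a subunit of the MICOS complex, which shapes the folds of the inner mitochondrial membrane. Its signal ran from 1.05 over a median of 2.57 to 2.88 in pSuc sets and from 0.79 over 1.13 to 1.48 in H2O sets. Only pSuc set 1 fell within the H2O range, and the other 6 pSuc sets began at 2.18. The gene was bright on both media, with its mean above those of 97.5% of all probes on pSuc and 95.1% on H2O. Its difference was 1.16 (2.23-fold), 1.04 as deposited and 1.66 with median centring.

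AT3G45770 encodes an enoyl reductase of mitochondrial fatty acid synthesis, the pathway that supplies the precursor of lipoic acid. It had signals from -0.66 over a median of 0.04 to 0.50 in pSuc sets and from -1.67 over -1.39 to -0.24 in H2O sets. H2O sets 1 and 2 averaged -0.30 and stood apart from the other H2O sets, which lay between -1.67 and -1.27. Without pSuc set 1 and H2O sets 1 and 2 the difference was 1.67, against 1.22 with all sets.

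Membrane proteins outside these organelles were represented by AT1G25500 and GLR2.7. AT1G25500, of the choline transporter-like family, ran from -0.14 over a median of 1.03 to 1.58 in pSuc sets and from -0.73 over -0.64 to -0.05 in H2O sets. Only pSuc set 1 lay below the highest H2O set, and the arrays of a set differed little (SD 0.10). GLR2.7, which encodes a glutamate receptor-like ion channel, ran from -1.40 over -0.71 to -0.12 in pSuc sets and from -3.01 over -1.79 to -0.62 in H2O sets. Only 3 of its pSuc sets lay above all H2O sets. The highest H2O value was that of set 1, and the other H2O sets, at -1.49 and below, lay under every pSuc set.

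The enzymes were AT1G15410, AT1G02020, AT5G53920 and AT1G11730, with differences of 1.07 to 1.34. As deposited, 0 of these 4 genes differed by 1 or more. AT1G15410, of the aspartate-glutamate racemase family, averaged 0.03 ± 0.75 in pSuc sets and -1.31 ± 0.58 in H2O sets (SD, n = 7 each). AT5G53920, related to the methyltransferases of ribosomal protein L11 in bacteria, averaged 0.28 ± 0.53 in pSuc sets and -0.88 ± 0.76 in H2O sets. AT1G02020, of the nitroreductase family, differed from most of the 41 genes in its H2O sets: H2O sets 1 and 2 averaged -2.57, below the -1.50 of the other 5. AT1G11730, a galactosyltransferase family gene, was 1.07 higher on pSuc (2.09-fold).

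Genes for proteins of the nucleus or with nucleic acid domains were AT5G05330, AT1G24310, AT5G61470 and AT4G26370. AT5G05330, with an HMG box, a domain that binds and bends DNA, had the largest difference of the 41 at 2.10 (4.29-fold). Its signal ran from -4.37 over a median of -1.57 to -1.23 in pSuc sets, against -4.37 to -4.02 in H2O sets. The probe was at the floor in 4 H2O sets and in pSuc set 1, so the fold depends on the floor, and with the 4-fold floor the difference was 0.61. AT1G24310, for a nuclear pore protein, averaged -0.97 ± 0.55 in pSuc sets and -2.20 ± 0.54 in H2O sets (SD, n = 7 each). The zinc finger gene AT5G61470 and AT4G26370, whose product has the domain of the bacterial antitermination factor NusB, were 1.06 and 1.19 higher on pSuc. In both of them 6 pSuc sets lay above all H2O sets.

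Proteins built of repeats, a BTB domain protein and a peptidase made up a further group of 5 with a median difference of 1.49. Tetratricopeptide repeats are short helical repeats through which proteins bind each other, and AT3G26580, AT4G32340 and AT3G09490 encode proteins with them. AT3G26580 was the brightest of the 41 on pSuc, with signals from 0.76 over a median of 2.70 to 3.03 in pSuc sets and from -0.01 over 0.70 to 1.23 in H2O sets. The medians of its deposited intensities were 5.42 in pSuc sets and 1.92 in H2O sets. Its normalized difference was 1.74 (3.34-fold), and it was 1.53 as deposited and 2.15 with median centring, the greatest value under median centring after AT5G05330. AT4G32340 was 1.44 higher, with 0.60 ± 0.72 in pSuc sets and -0.83 ± 0.32 in H2O sets (SD, n = 7 each). AT3G09490 was 1.37 higher on pSuc, and in all 3 genes 6 pSuc sets lay above all H2O sets.

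TPP2, the tripeptidyl peptidase II gene, encodes a large cytosolic peptidase that trims peptides released by the proteasome. Its signal ran from -3.36 over a median of -1.48 to -0.78 in pSuc sets and from -4.10 over -3.31 to -2.64 in H2O sets. The pSuc sets were widely spread: 5 lay above all H2O sets, and the lowest of pSuc sets 2 to 7 was at -2.79. The arrays of a set also differed more than in most genes (SD 0.49, against a median of 0.22 over the 41). The difference of TPP2 was 1.58, and with the 4-fold floor it was 0.78. AT4G15840, with a BTB domain, a surface by which many proteins join ubiquitin ligases, ran from -3.08 over -0.57 to -0.15 in pSuc sets and from -3.41 over -2.61 to -0.74 in H2O sets. H2O sets 1 and 2 averaged -0.83 there, near the pSuc median, and the other H2O sets -3.02.

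Genes linked to stress or of proline-rich and lipid-transfer protein families were AT3G06870, DI21, AT1G63720, AT4G05070 and AT4G22490. AT3G06870, of a proline-rich protein family, ran from -2.54 over a median of -0.61 to -0.10 in pSuc sets and from -3.63 over -3.02 to -1.41 in H2O sets. Its difference was 1.90 (3.73-fold), and without pSuc set 1 and H2O sets 1 and 2 it was 2.64. DI21 (drought-induced 21), of a family of late embryogenesis abundant proteins that accumulate when cells lose water, ran from -3.26 over -1.33 to -0.41 in pSuc sets and from -3.66 over -3.32 to -1.19 in H2O sets. Both extremes came from the sets that stood apart: pSuc set 1 was 2.22 below the mean of the other pSuc sets, and H2O sets 1 and 2 averaged -1.26 against -3.38 in the others. AT4G05070, of a wound-responsive family, ran from -0.82 over a median of 0.67 to 1.56 in pSuc sets and from -1.62 over -0.16 to 0.27 in H2O sets. In this gene pSuc sets 1 and 7 lay within the H2O range, and the other 5 pSuc sets were above it. Its difference of 1.03 was near the threshold, as was the 1.02 of AT4G22490, of the lipid-transfer protein type.

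Of the 13 genes left without a function, AT1G70350 and AT3G56010 had the largest differences, at 1.48 each. With the 4-fold floor these were 0.66 and 0.63, and with the values as deposited 0.84 and 1.11. In AT1G70350 the signal ran from -2.99 over a median of -1.66 to -1.42 in pSuc sets and from -3.66 over -3.21 to -2.91 in H2O sets. H2O sets 1 and 2 averaged -3.39, below the -3.23 of the other 5. AT3G56010 showed a wide spread, with -1.92 ± 1.13 in pSuc sets and -3.40 ± 1.16 in H2O sets (SD, n = 7 each). AT1G51080 ran from -1.86 to -0.76 in pSuc sets 2 to 7, with pSuc set 1 at 1.26 below their mean, and from -3.46 over -3.06 to -1.92 in H2O sets, a difference of 1.44. The other 10 were AT2G29180 (1.31), AT2G04360 (1.21), AT3G61870 (1.19), AT4G09970 (1.19), AT5G19900 (1.19), AT1G72020 (1.17), AT5G33390 (1.15), AT2G18920 (1.06), AT1G28150 (1.04) and AT5G19540 (1.01), each with its difference in log2 units. AT5G19540 had the smallest spread in pSuc sets of these, with 0.36 ± 0.23 there and -0.65 ± 0.38 in H2O sets, and its groups touched within rounding. With the 4-fold floor AT3G61870, AT5G33390, AT2G29180, AT4G09970 and AT5G19900 had differences of only 0.10 to 0.31. Those of the rest of these 10 were 0.83 to 1.03.

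**Figure D4:**
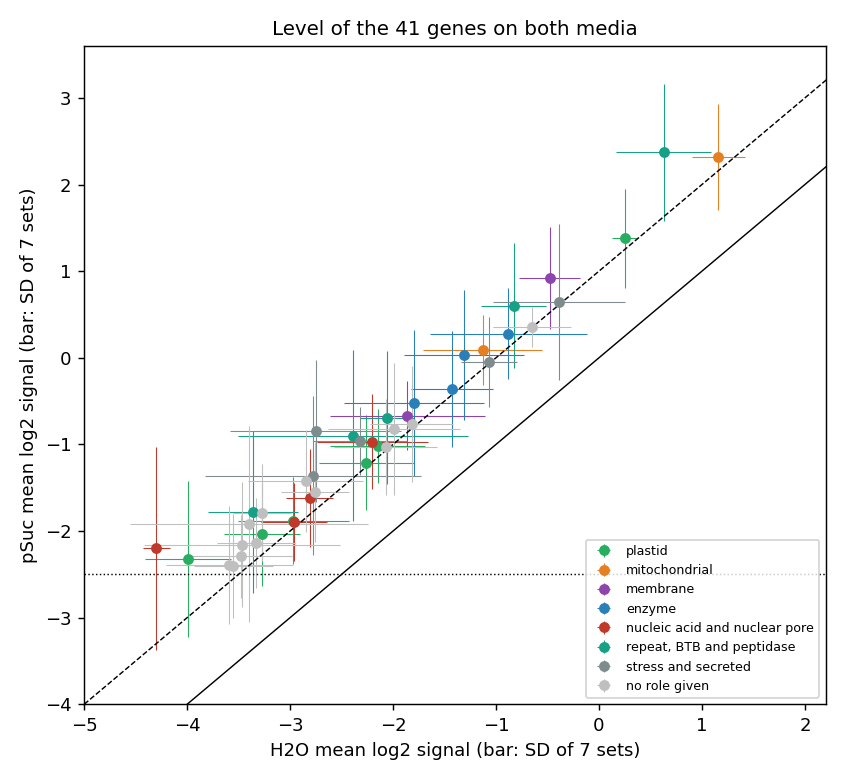
Mean normalized log2 signal on pSuc (vertical) against H2O (horizontal) for the 41 genes, coloured by function, with SD over 7 sets as bars. The solid line marks equal levels, the dashed line a difference of 1 and the dotted line the level of -2.5. The mitochondrial pair lies on the bright side, at a median pSuc level of 1.20, and the genes without a function have a median pSuc level of -1.79.

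Near the thresholds, the genes just inside the difference of 1 were AT5G19540 (1.008), AT4G22490 (1.016) and AT4G05070 (1.029), and those just outside were AT2G35490 (0.989), AT3G14890 (0.989) and AT1G01500 (0.986). Just inside the level of -2.5 lay AT5G33390 (-2.40), AT3G61870 (-2.39) and AT5G17630 (-2.32). Just outside lay AT3G56250 (-2.79), AT4G05030 (-2.84) and AT2G42490 (-3.03). The genes on either side of the first threshold were closer to each other than the sets of a gene, whose SD had a median of 0.55 over the 41 genes.

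Deviations from the group means, which the choice of the genes did not use directly, were shared among the 41 genes. The correlation between genes over 14 sets had a median of 0.644, with quartiles of 0.468 and 0.763, against a median of 0.0121 among 589 other probes of 1 gene whose sets varied. Without pSuc set 1 and H2O sets 1 and 2 it was 0.0436, against 0.00147 among the other probes. Those 3 sets were picked for lying apart in the same data, so leaving them out had to lower it. All points share the same arrays and their normalization, and the genes were chosen for the same direction. In 26 of the 41 genes both H2O sets 1 and 2 lay above all other H2O sets, a count not made over all probes. The 4 genes with the widest gap between these sets and the other H2O sets were AT4G15840 (2.19), AT3G56010 (2.16), DI21 (2.12) and AT2G29180 (1.68), whereas AT1G02020 had -1.07 and AT5G17630 -0.23. Leaving out the 3 sets raised the median difference of the 41 genes to 1.57, and all 41 stayed at or above 1.

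Other genes of related function were sought by words in symbols and synonyms of the 692 probes of 1 gene, which name few products. Of 6 genes found by the words for kinases, phosphatases and signalling, GLR2.7 and PRK (0.96) were past the threshold and higher on pSuc. CML41 (-1.17) and CML30 (-0.89), both calmodulin-like, were past it and lower. PRK was found by the words for photosynthesis too and counts in both classes. A word match does not make it a signalling gene. TPP2 was the 1 gene past the threshold among 5 of proteases and chaperones. Counting only genes past the threshold, 1 was higher and 1 lower of 6 genes found by the words for photosynthesis and the plastid. These words matched 0 of the 41 genes, so they missed the 6 plastid genes described above. Of 15 metabolic enzymes 2 were higher and 3 lower, and of 5 cell wall genes 2 were higher and 1 lower. All 5 cell wall genes were also among the 15 enzymes, so the classes overlap and their counts are not separate. Of 5 genes for RNA and chromatin 1 was lower. The words for mitochondria and respiration found 3 genes, of which ETFQO (-0.31) was lower. NdhS (-0.07) and NdhN (0.17) were not past the threshold. All 3 were also among the enzymes, and a word match does not place a gene in an organelle. The words for repeat proteins, ribosomes, transcription factors and transport found 0 genes. Among the probes of 1 gene as a whole, 16.8% were past the threshold and higher and 15.6% past it and lower.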

How the data were processed

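The deposited table holds linear intensities of 3439 probes on 28 arrays. How the authors corrected the background, scaled or normalized them is not stated in the labels or the table. All columns matched a sample, and groups and replicate numbers come from the titles. Between 11.9 and 17.5% of probes per array were listed at 0, and precision is limited by the number of arrays.

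Values below 0.0483 (the 5th percentile of those above 0) were set to that floor, then log2 transformed and quantile normalized. Consecutive arrays were averaged to 7 sets per group. A set counts as at the floor where both arrays are. Folds are on this floored scale, and those of dim genes depend on the floor. Whether they understate or overstate the change was not tested. All probes were fitted with limma 3.58.1 in R 4.3.3 (lmFit, eBayes, Benjamini-Hochberg over all probes, two-sided); the fit was tested on simulated data.

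Symbols were updated with RefSeq's gene table (assembly TAIR10.1), which matched 690 of the 692 probes of 1 gene. The members and lists were chosen with earlier results of these data known. Values per group are given by rule for the 8 largest differences among genes with at least 4 of 7 H2O sets above the floor, genes whose groups do not overlap, the 6 brightest and the top 2 of each word class. Other genes given with values were chosen after theirs were seen, as were the functional groups. Promoter motifs were planned and not analysed here. Alternatives were the scalings, the low values, a filter on dim probes, single arrays, the replicate number as a block, the sets kept and, chosen after seeing the data, centring by 48 consecutive spots.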

Additional observations from a re-analysis of the deposited data

Results flagged for a closer look

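By Dixon's test, 6 of the 32 groups of values examined held a set far from the rest, and chance flags about 1 in 20 such groups. The values are not independent, since most belong to genes chosen for the same difference. In 5 of the 6 it was pSuc set 1, which is 1 observation seen repeatedly. The median of the 41 genes was -2.34 in this set, against -0.87 to -0.76 in the other pSuc sets (gap over range 0.934). AT4G15840 was at -3.08 there, against -0.82 to -0.15 (0.774), and AT1G70350 at -2.99, against -1.89 to -1.42 (0.702). AT2G38550 was at 0.12, against 1.42 to 1.77 (0.789), and AT4G39690 at 1.05, against 2.18 to 2.88 (0.617). The other was AT5G17630 in H2O set 3, at -3.09 against -4.37 to -3.94 in the other H2O sets (0.662).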

How the results depend on the processing

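By the same thresholds, 7 genes were members with the values as deposited, 63 with median centring, 17 with an offset of 0.1, 21 with the 4-fold floor and 76 without pSuc set 1 and H2O sets 1 and 2. The cause was not tested, except that the last count leaves out sets chosen for lying apart. The median difference of the 41 genes was 0.69 as deposited. Past the limma threshold were 1033 probes, against 685 with the 4-fold floor, 1710 with 28 arrays as separate samples and 1657 without the 3 sets. The share of these that were higher on pSuc was 58.6%, against 20.4% as deposited and 71.3% with median centring. Replicate numbers did not pair the sets, since deviations of same-numbered sets correlated at -0.515 to 0.128, over 0.1 in 1 of 7 pairs. With the replicate block, 416 probes and 19 of the 41 genes were past the threshold, against 37 genes without it. Leaving out each set in turn gave 38 to 57 members, a median difference of 1.15 to 1.41, 764 to 1431 probes and 34 to 41 of the 41 genes past the threshold, each highest without pSuc set 1. Centring by spots kept 30 of the 41 at 1 or more. Of 300 values of the 15 genes named by rule under the other settings, 291 moved by less than the SD between sets and 0 changed sign. Most of these values leave out 1 set of 7, which can shift a group mean only a little, so the 291 do not measure stability. The 9 values that moved further all came from the scalings and the treatments of low values. For dim probes near the floor the folds depend on the floor.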

Other observations

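Among the 41 genes, 2 pairs lay within 10 protein-coding genes of each other in the RefSeq table. AT4G15840 and DI21 had 6 genes between them, and their deviations from the group means correlated at 0.899 over 14 sets. Such a value was not particular to neighbours. The highest of all pairs of the 41 genes was 0.966, for AT4G15840 and AT1G15410, which were not neighbours. GLR2.7 and AT2G29180 had 5 genes between them, with a correlation of 0.639, close to the median of 0.644 over all pairs of the 41 genes. AT4G15840 and DI21 were also among the genes in which H2O sets 1 and 2 lay furthest above the other H2O sets (2.19 and 2.12). The probes of both neighbouring pairs were far apart in spot order. The 41 probes lay in 31 blocks of 48 consecutive spots, of 96 blocks with a probe of 1 gene, and at most 4 were in the same block.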
